A study of Mus musculus with 6 samples.

Results

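The lens genes described here are 30 genes of the mouse lens fibre cell, its membrane and cytoskeleton, and the transcription factors that act in the lens: 16 crystallins and 14 others. They were measured in isolated retinas, and the retina itself also makes some crystallins and some of these factors. The rule takes, for each gene, the brightest probe set that maps to it alone, by the mean log2 signal over all arrays. Of the 30 genes, 26 have such a probe set, out of 18193 genes with a probe set of their own on the Affymetrix Mouse Genome array. Cryge, Lgsn and Lctl have no probe set under their names in the annotation used, and Crygc has only one that it shares with Crygb.

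Retinas of 3 OC1-KO and 3 WT mouse embryos were measured, 1 array per embryo, and each genotype's embryos are numbered 1 to 3 in the labels. OC1-KO embryos lack the transcription factor Onecut1 in all cells, as germline knockouts. Both groups came from litters of one colony, made with R1 embryonic stem cells and a "Swiss" strain and later crossed to C57Bl/6, so that the background is mixed. For fixed eyes the study's methods have the lens taken off before the retina was used, and the array protocol says only that retinas were isolated. The labels give the age as E14 and the series title as E14.5, and no embryo had a treatment. The values are MAS5 signals, which summarise the probes of each probe set after background correction, and they are given here as log2. A log2 signal of 7 is the minimum that the study's methods set for expression.

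Onecut1 itself gave log2 signals of 9.02, 8.31 and 9.67 in OC1-KO embryos 1 to 3 and 9.25, 8.76 and 9.0 in WT embryos 1 to 3 on its brighter probe set. The sources used here do not place that probe set inside or outside the deletion, so its level checks nothing about the genotype. Retina was present on every array: all 12 measured genes of a list of retinal progenitor and neuron markers lay above 7 on all 6 arrays, with a mean log2 signal of 12.65 to 12.77 in OC1-KO and 12.57 to 12.79 in WT embryos. Between 43.4% and 46.7% of the probe sets of an array lay above 7. The arrays of the embryos numbered 3, OC1-KO 3 and WT 3, stood apart from the other 4 in the lens genes, and results that rest on them are given with and without them.

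The lens is a body of transparent cells without blood vessels, in which a sheet of epithelial cells at the front feeds elongated fibre cells behind it. Fibre cells fill with crystallins, soluble proteins that refract light, and later lose their nuclei. The alpha crystallins are small heat shock proteins that keep other proteins in solution, whereas the beta and gamma crystallins form a separate family of structural proteins. At mid-gestation the mouse lens lies against the inner face of the retina and already makes crystallins, and the factor Maf drives their genes in the fibre cells.

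Promoters are shown because the crystallin genes varied together over the arrays, and no test links their letters to the values. The last 100 bases before the start site are shown for 9 crystallins that were high in the embryos numbered 3, and for Crybb2, which was not. The sequences are from RefSeq on GRCm38.p6, each written 5′ to 3′ on the strand of the gene. Capitals mark TGCTGA, the core that Maf factors recognise, and the TATA box letters TATAAA and TATATA, each on either strand. The windows of Cryba2 and Crybb2 hold none of these. TATATA overlaps itself where 8 capitals stand together.
Cryaa (chr17:31677831-31677930, + strand): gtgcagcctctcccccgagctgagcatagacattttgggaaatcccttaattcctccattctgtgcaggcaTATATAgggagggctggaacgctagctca
Cryba1 (chr11:77725294-77725393, - strand): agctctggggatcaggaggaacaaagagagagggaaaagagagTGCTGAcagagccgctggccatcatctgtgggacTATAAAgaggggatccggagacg
Cryba2 (chr1:74893144-74893243, - strand): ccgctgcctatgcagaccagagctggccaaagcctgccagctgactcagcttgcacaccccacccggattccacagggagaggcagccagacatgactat
Cryba4 (chr5:112252519-112252618, - strand): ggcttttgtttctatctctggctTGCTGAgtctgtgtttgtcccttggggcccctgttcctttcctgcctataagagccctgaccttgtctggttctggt
Crybb1 (chr5:112255720-112255819, + strand): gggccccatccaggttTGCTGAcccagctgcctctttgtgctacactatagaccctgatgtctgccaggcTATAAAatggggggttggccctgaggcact
Crybb2 (chr5:113070118-113070217, - strand): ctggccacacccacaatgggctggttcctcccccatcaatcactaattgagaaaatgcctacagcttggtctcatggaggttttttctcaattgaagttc
Cryga (chr1:65103364-65103463, - strand): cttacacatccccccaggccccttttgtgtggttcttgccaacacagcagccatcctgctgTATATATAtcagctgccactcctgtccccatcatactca
Crygb (chr1:65082291-65082390, - strand): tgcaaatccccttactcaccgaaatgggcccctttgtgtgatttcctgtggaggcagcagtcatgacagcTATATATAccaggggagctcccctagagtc
Crygd (chr1:65063441-65063540, - strand): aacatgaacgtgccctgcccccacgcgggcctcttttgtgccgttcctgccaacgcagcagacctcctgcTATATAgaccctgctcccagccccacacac
Crygf (chr1:65926422-65926521, + strand): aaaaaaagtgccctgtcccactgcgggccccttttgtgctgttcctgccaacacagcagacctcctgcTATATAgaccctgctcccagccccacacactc

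In the 250 bases before the start, TGCTGA was found in 15 of the 27 lens genes with a promoter in the table and in 15.8% of all 27025 promoters of that length. TATATA was found in 8 of the 27, among them all of Cryga, Crygb, Crygc, Crygd, Cryge and Crygf, and in 5.56% of all promoters. TATAAA was in 5 of the 27 and in 13% of all. The gamma crystallin genes Cryge, Crygd, Crygc, Crygb and Cryga follow each other on chromosome 1 with no other protein coding gene between them, and 4 such genes lie between Cryga and Crygf. Their promoters resemble each other: Crygd and Crygf share 89 of the 100 bases shown, and the least alike pair of the 6, Crygb and Crygd, share 62. These matches describe letters and not bound sites.

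Lens crystallins lay below 7 in the embryos numbered 1 and 2 of both genotypes, and most were bright in the embryos numbered 3 of both genotypes. Of the 14 crystallins measured, 12 lay above 7 in OC1-KO 3 and the same 12 in WT 3, and 0 lay above 7 on any of the other 4 arrays. Over these 12 the median log2 signal was 10.58 in OC1-KO 3 and 11.64 in WT 3, and 3.31 to 5.86 on the other arrays. The lower of both arrays numbered 3 exceeded the highest of the other 4 by 3.39 to 6.40 on the log2 scale.

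The alpha crystallin gene Cryaa, the more lens-restricted of that pair, measured 3.45, 4.09 and 10.49 in OC1-KO embryos 1 to 3 and 3.04, 2.26 and 11.59 in WT embryos 1 to 3. Cryab, which muscle, heart and glia also express, measured 3.53, 2.30 and 8.50 in OC1-KO and 1.42, 4.05 and 8.70 in WT embryos 1 to 3. In both genes OC1-KO 3 and WT 3 were high and the genotypes overlapped. A second Cryab probe set was dimmer and ran the same way, at 1.76, 2.01 and 6.61 in OC1-KO and 0.97, 1.01 and 6.64 in WT. The third ran the other way, at 5.07, 5.07 and 2.26 in OC1-KO and 5.62, 4.76 and 3.94 in WT, all below 7.

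The beta crystallins are the most abundant structural proteins of the lens, and 5 of the 6 measured were high in both embryos numbered 3. Cryba1 measured 4.99, 6.77 and 11.96 in OC1-KO embryos 1 to 3 and 5.70, 3.32 and 12.96 in WT embryos 1 to 3. Crybb1, the beta crystallin first made as fibre cells differentiate, measured 3.28, 5.39 and 11.36 in OC1-KO and 5.43, 3.31 and 12.36 in WT. Crybb3 measured 4.70, 6.35 and 10.67 in OC1-KO and 4.50, 5.18 and 11.26 in WT. In these 3 genes the third embryo of each genotype was the high one, and WT 3 exceeded OC1-KO 3. Cryba2 showed the smallest gap of the 12, at 5.76, 5.99 and 9.38 in OC1-KO and 5.39, 4.01 and 10.32 in WT. Cryba4, whose gene lies beside Crybb1 on chromosome 5, measured 2.63, 4.62 and 9.45 in OC1-KO and 2.89, 2.27 and 10.27 in WT. The exception was Crybb2, a major beta crystallin of the mature lens whose level in the mouse rises after birth, at 2.29, 3.35 and 4.16 in OC1-KO and 5.89, 4.98 and 3.63 in WT. No array was high for Crybb2, although its gene neighbours that of Crybb3, and WT 3 was the lowest of the WT embryos.

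The gamma crystallins are compact monomers that pack the dense fibre core, and 5 of the 6 measured had the same pattern. Cryga measured 2.64, 6.14 and 11.39 in OC1-KO embryos 1 to 3 and 2.66, 1.33 and 12.75 in WT embryos 1 to 3. Crygb measured 4.77, 6.34 and 10.99 in OC1-KO and 4.87, 5.38 and 12.13 in WT. Crygd measured 2.09, 5.72 and 10.01 in OC1-KO and 2.10, 1.74 and 11.69 in WT. Each was high in the embryos numbered 3 alone. Crygf measured 5.57, 6.43 and 11.10 in OC1-KO and 6.51, 5.49 and 12.15 in WT, on a probe set whose suffix, x_at, marks probes that may also bind related transcripts. The probe set shared by Crygb and Crygc measured 6.36, 6.35 and 11.38 in OC1-KO and 6.46, 5.45 and 12.65 in WT. The genes Cryga to Crygf are close relatives, and whether their probes also bind each other's transcripts was not checked, so how the signal divides among them is uncertain.

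Crygn, which encodes gamma N, a protein with features of both the beta and the gamma group, had a lower ceiling, at 2.89, 3.32 and 8.47 in OC1-KO embryos 1 to 3 and 2.36, 1.62 and 9.42 in WT. Crygs, the gamma S crystallin typical of the older lens cortex, stayed below 7 on every array, at 5.23, 6.29 and 6.26 in OC1-KO and 2.58, 4.76 and 5.97 in WT. Crybb2 and Crygs were thus the 2 of 14 crystallins without a high array.

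**Figure D1:**
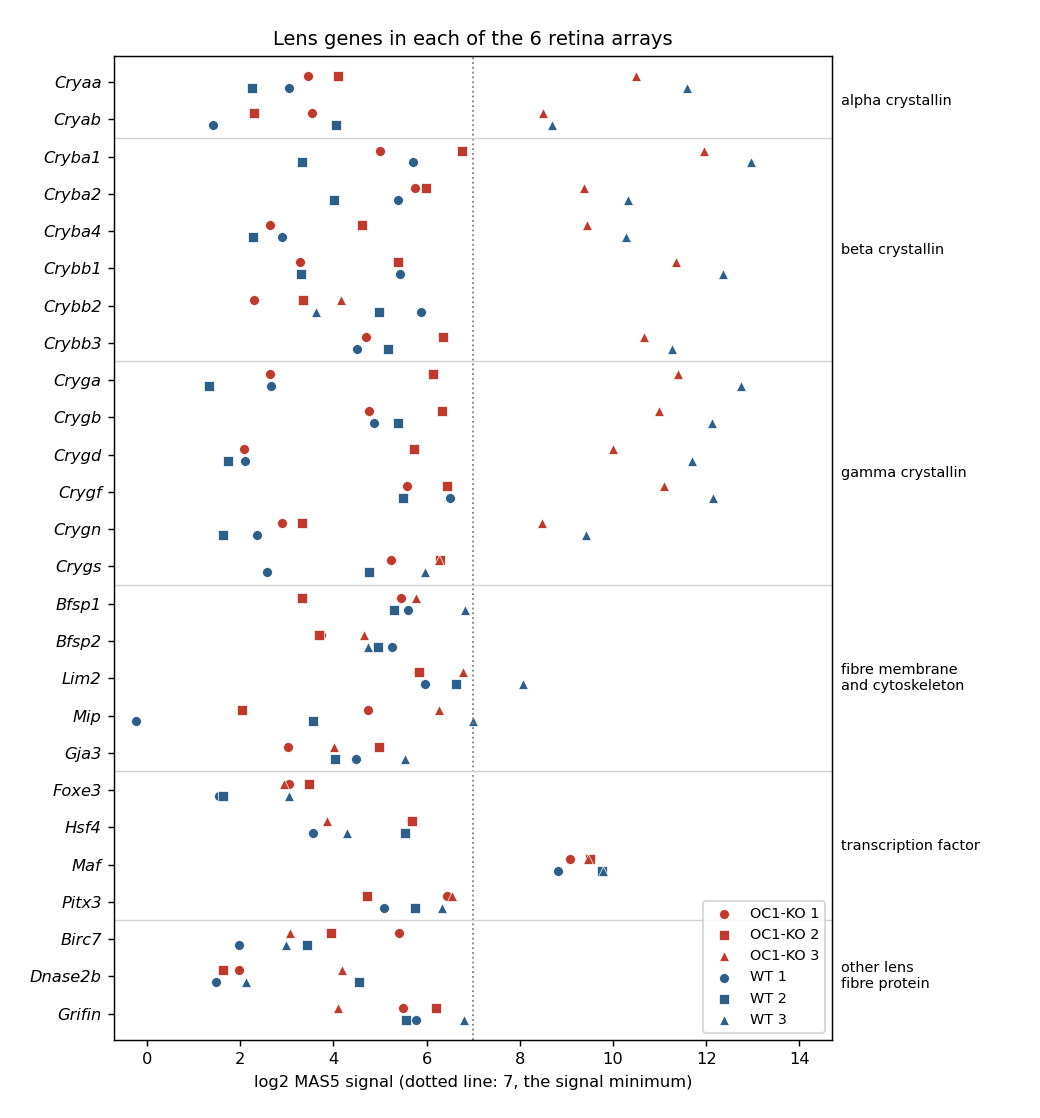
The log2 MAS5 signal (x axis) of the 26 lens genes measured (rows, grouped by role) on each of the 6 arrays, with OC1-KO embryos in red above WT embryos in blue and the embryo's number as circle, square or triangle. The triangles of 12 crystallins, embryos numbered 3, lie at 8.47 to 12.96, right of the dotted line at 7, and the circles and squares of these 12 lie at or below 6.77.

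Genes of the fibre membrane and the beaded filament, the cytoskeleton particular to lens fibres, were dim throughout. Lim2, an abundant fibre membrane protein, measured 5.81, 5.84 and 6.79 in OC1-KO embryos 1 to 3 and 5.96, 6.63 and 8.06 in WT embryos 1 to 3, and WT 3 was the only array above 7 for any of these 5 genes. Mip, the water channel aquaporin 0, measured 4.74, 2.03 and 6.26 in OC1-KO and -0.24, 3.57 and 6.99 in WT. Bfsp1, the beaded filament protein filensin, measured 5.44, 3.33 and 5.78 in OC1-KO and 5.61, 5.30 and 6.82 in WT. In Lim2, Mip and Bfsp1 the highest array was WT 3 and both arrays numbered 3 exceeded the other 4, by 0.16, 1.52 and 0.16. A second Mip probe set stayed at 1.16 to 1.94 in OC1-KO and 1.11 to 2.51 in WT. Bfsp2, its filament partner phakinin, lay at 3.69 to 4.66 in OC1-KO and 4.75 to 5.26 in WT, with no high array. The gap junction protein connexin 46, from Gja3, lay at 3.02 to 4.98 in OC1-KO and 4.03 to 5.54 in WT. A second, dimmer Gja3 probe set had the pattern of the crystallins, at -0.47, -0.64 and 4.70 in OC1-KO and 1.4, 0.68 and 6.05 in WT embryos 1 to 3. It was lower in OC1-KO at all 3 numbers, and its unadjusted limma p was 0.00296 with the embryo number as a block, where 4.32% of all probe sets and 0 of the 26 lens genes on their brightest probe sets were under 0.05, and 0.488 without the block.

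The transcription factors did not follow the crystallins. Maf, the basic leucine zipper factor that switches on crystallin genes and is also made by other eye tissues, was above 7 on all 6 arrays, at 9.08, 9.51 and 9.47 in OC1-KO embryos 1 to 3 and 8.83, 9.77 and 9.79 in WT embryos 1 to 3. The embryos numbered 2 and 3 did not separate. Foxe3, the forkhead factor of the lens epithelium, was at 3.04, 3.47 and 2.95 in OC1-KO and 1.54, 1.64 and 3.05 in WT, so that this defining epithelial marker stayed dim where the crystallins were bright. Hsf4, a heat shock factor needed in fibre cells, lay at 3.86 to 5.68 in OC1-KO and 3.56 to 5.53 in WT, and Pitx3, a homeobox factor of the lens vesicle, at 4.73 to 6.54 in OC1-KO and 5.09 to 6.34 in WT. For each of Foxe3, Hsf4 and Pitx3 at least 1 array numbered 1 or 2 exceeded the lower array numbered 3.

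The other fibre proteins were low on all arrays. Birc7, the apoptosis inhibitor livin, lay at 3.06 to 5.41 in OC1-KO and 1.97 to 3.43 in WT, and Dnase2b, the nuclease that clears DNA from fibre cells, at 1.62 to 4.18 in OC1-KO and 1.48 to 4.54 in WT. Grifin, a galectin-related fibre protein, lay at 4.09 to 6.20 in OC1-KO and 5.56 to 6.81 in WT. Thus 12 of the 26 lens genes measured were above 7 on no array, 12 on OC1-KO 3 and WT 3 alone, Lim2 on WT 3 alone and Maf on all 6.

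Against all probe sets the share of lens genes with this pattern was large. Both arrays numbered 3 exceeded all of the other 4 by over 1 on the log2 scale in 13 of the 26 lens genes, which are the 12 crystallins and Mip, and in 0.586% of all 45037 probe sets. With any excess the figures were 15 of 26 and 11.1%. The units differ: the lens genes are counted on their brightest probe set, and the shares are over all probe sets without such a choice. Of the dimmer probe sets given above, the second of Cryab and that of Gja3 had the pattern. The third of Cryab and the second of Mip lacked it. An excess over 3 was found in 37 probe sets, 0.0822% of all. Of these, 14 mapped to a lens gene of the list alone, for 13 genes including Gja3, and 1 to Crygb and Crygc together.

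The embryo number was tested as a factor with 3 levels beside genotype, by the moderated F-test of limma over all probe sets above 7 on average in OC1-KO or in WT. This filter kept 7 of the lens genes, Maf and 6 crystallins, and the crystallins passed it only through the arrays numbered 3, so that the filter itself fixed a difference by number in them and nothing is read from their counts. At an adjusted p under 0.05 the number was called for 6 of the 7 and for 5.32% of the 20888 probe sets kept. The adjusted p was 0.0399 for Crybb1, Crybb3, Crygb and Crygf, 0.0418 for Cryba2 and 0.0432 for Cryba1, and 0.104 for Maf. At an unadjusted p under 0.05 there were 7 of 7 and 31.9% of the probe sets kept. Without the filter none of the 26 had an adjusted p under 0.05, as for all 45037 probe sets, and at an unadjusted p under 0.05 there were 13 of 26, against 12.7% of all probe sets. The 13 are the 12 crystallins and Lim2. With any of OC1-KO 1, OC1-KO 3 or WT 3 left out, 0 lens genes were called, and over all probe sets 0 without OC1-KO 1, 6 without OC1-KO 3 and 3 without WT 3. Of all probe sets 7 were called without OC1-KO 2 and 9 without WT 2, and 6 lens genes without either one.

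Between genotypes no lens gene differed after adjustment over all probe sets. Over the 26 measured, 15 were higher and 11 lower in OC1-KO. The median of their differences was 0.22 on the log2 scale, against a median of -0.01 over all probe sets. At an adjusted p under 0.05 limma called 0 of the 7 lens genes kept and 0% of all 20888 probe sets. At an unadjusted p under 0.05 it had 0 of the 7, against 1.01% of all (210 probe sets). The methods' t-test had 0 of the 7 and 1.51% of all (316), and limma with the embryo number as a block 0 of the 7 and 4.37% of all (913). Of these 7, 6 are the crystallins that passed the filter only through the arrays numbered 3. Their values spread so widely within each genotype that nothing is read from these counts. Cryba1 averaged 7.90 ± 3.62 in OC1-KO and 7.33 ± 5.02 in WT (mean ± SD of the log2 signal in 3 embryos per genotype), and the difference was 0.58 (SE 2.72). Crybb1 averaged 6.68 ± 4.19 in OC1-KO and 7.03 ± 4.74 in WT (same units), and the difference was -0.36 (SE 2.77). Over the 12 crystallins the differences ran from -0.36 to 1.14 with SEs of 1.71 to 3.70, so that every SE exceeded its difference. Without the embryos numbered 3 the difference was 1.37 for Cryba1 and -0.03 for Crybb1, and the median over the 26 lens genes was 0.56. In this setting, with no filter, 3 of the 26 had an unadjusted limma p under 0.05, against 4.46% of all probe sets, and 0 probe sets had an adjusted p under 0.05. By limma, Crybb2 had a difference of -2.62 (unadjusted limma p 0.0130), Bfsp2 of -1.39 (0.00642) and Foxe3 of 1.66 (0.00509), each below 7 on every array. With all 6 arrays the limma p was 0.0794 for Crybb2 and 0.0615 for Foxe3. Maf differed by -0.11 with an SE of 0.29.

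Bfsp2 was the 1 of 26 lens genes in which the genotypes did not overlap, as they did not in 5.49% of all probe sets. It measured 3.74, 3.69 and 4.66 in OC1-KO embryos 1 to 3 and 5.26, 4.96 and 4.75 in WT embryos 1 to 3, all below the signal minimum of 7. The difference was -0.96 (SE 0.34), with an unadjusted limma p of 0.0304, an adjusted p of 1.00 and an exact permutation p of 0.1, two-sided, which is the smallest that 3 against 3 arrays allow. Without the filter 2.9% of all probe sets had an unadjusted limma p under 0.05. With the embryo number as a block the limma p of Bfsp2 was 0.0700, so that the call was lost. It was lost as well by the methods' t-test, after quantile normalization (limma p 0.0564), after centring (limma p 0.0624), with an intensity trend (limma p 0.131) and in 4 of the 6 omissions of 1 embryo.

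By embryo number the crystallins differed between genotypes in both directions. In the embryos numbered 3 all 12 bright crystallins were lower in OC1-KO 3 than in WT 3, by differences of -1.69 (Crygd) to -0.20 (Cryab) and a median of -1.0. Of all 19086 probe sets above 7 on both of these arrays, 53.9% were lower in OC1-KO 3, and 5.68% were lower by over 0.5, as 11 of the 12 crystallins were. The median was -1.05 after quantile normalization, with 12 of 12 lower. It was -0.78 after each array was centred on its median, with 11 of 12 lower and Cryab at 0.02, where the median of all 19086 probe sets was itself 0.20. This is 1 embryo against 1, with no replicate of the difference, and in whole tissue fewer lens cells and less RNA per cell cannot be told apart. In the embryos numbered 2, 11 of the same 12 were higher in OC1-KO 2 than in WT 2, all at signals below 7, and OC1-KO 2 was the highest of the 4 arrays numbered 1 and 2 for 9 of them. In the embryos numbered 1, 5 of the 12 were higher in OC1-KO 1.

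**Figure D2:**
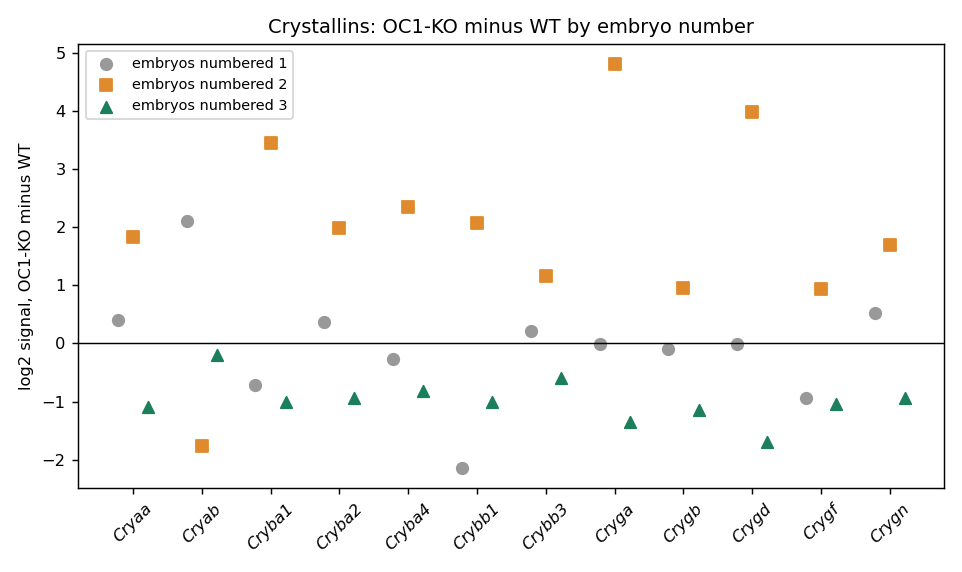
The log2 signal in OC1-KO minus that in WT (y axis) for the 12 crystallins above 7 in both embryos numbered 3 (x axis), for each embryo number, 1 embryo per genotype at each number. The triangles, embryos numbered 3, all lie below 0, at -1.69 to -0.20, the squares, embryos numbered 2, lie above 0 for 11 of the 12, and the circles lie on both sides.

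Markers of some other tissues around the retina were also higher in both embryos numbered 3 than in the other 4. Their part in the values of the lens genes was not tested. Summed over the 14 crystallins, the linear signal was 286, 731 and 19791 in OC1-KO embryos 1 to 3 and 379, 253 and 41703 in WT embryos 1 to 3. For 6 measured genes of 8 listed for red blood cells the sums were 69.3, 741 and 23983 in OC1-KO and 375, 125 and 16562 in WT. The embryonic globin gene Hba-x, at 2.91, 6.32 and 11.18 in OC1-KO and 5.97, 4.05 and 10.15 in WT (log2 signal), and the heme synthesis gene Alas2, at 2.27, 2.31 and 9.20 in OC1-KO and 1.70, 2.83 and 8.53 in WT, were high in the same arrays as the crystallins. Both embryos numbered 3 exceeded the other 4 in 5 of these 6 genes. They did not in Epb42, at 3.00, 3.46 and 2.13 in OC1-KO and 1.58, 3.80 and 2.85 in WT. Of the 10 periocular mesenchyme genes measured, 8 were higher in both embryos numbered 3 than in the other 4, as was the collagen gene Col3a1 at 4.84, 6.14 and 9.09 in OC1-KO and 5.10, 3.88 and 9.90 in WT. The same held for 7 of 9 genes of surface ectoderm and cornea, with the keratin Krt5 at 5.63, 6.73 and 8.15 in OC1-KO and 5.75, 6.21 and 8.16 in WT, and for 7 of 10 of the pigment epithelium. It held for 1 of 8 endothelial, 3 of 5 macrophage and 1 of 12 retinal genes, and for 11.1% of all probe sets. An excess over 1 was found in 5 of 6 red blood cell, 7 of 10 mesenchyme and 3 of 9 surface ectoderm genes. It was found in 0 pigment epithelium, endothelial, macrophage and retinal genes, and in 0.586% of all probe sets.

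**Figure D3:**
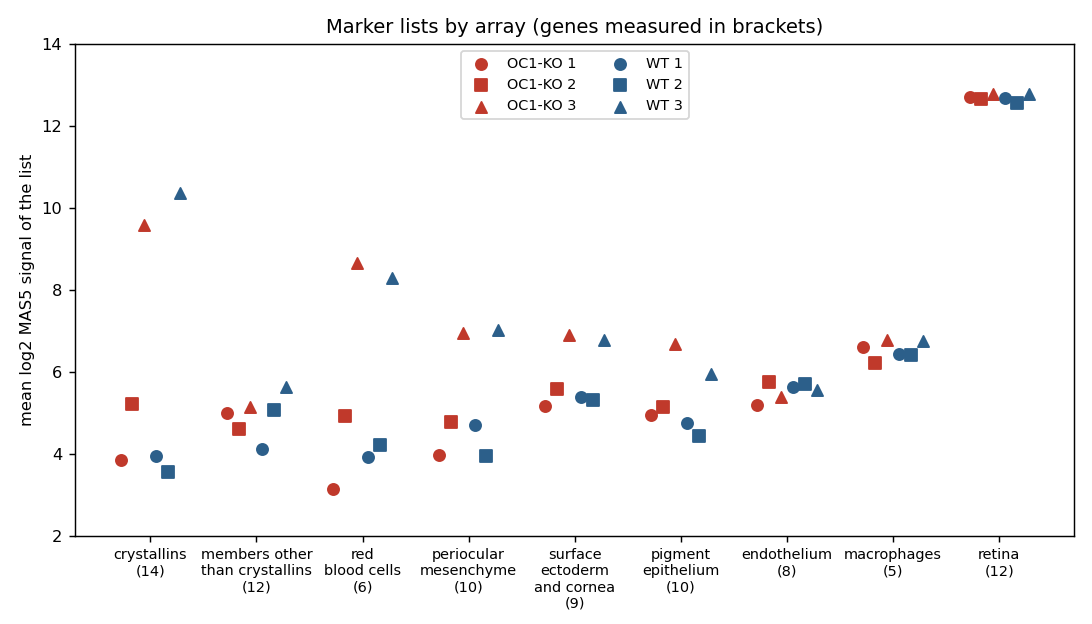
The mean log2 MAS5 signal (y axis) of each marker list (x axis, number of genes measured in brackets) on the 6 arrays, OC1-KO in red and WT in blue, with circles, squares and triangles for embryos 1, 2 and 3. The triangles stand at 9.59 in OC1-KO 3 and 10.37 in WT 3 for the crystallins, at 8.65 in OC1-KO 3 and 8.28 in WT 3 for red blood cells and at 6.94 in OC1-KO 3 and 7.02 in WT 3 for periocular mesenchyme, above the other arrays of each list, whereas the 6 arrays of the retina list lie within 12.57 to 12.79.

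The marker lists differed in which of the embryos numbered 3 was higher. This is again 1 embryo against 1, and the genes of a list are not replicates. Of all 19086 probe sets above 7 on both arrays, 53.9% were lower in OC1-KO 3. The 12 bright crystallins were lower in OC1-KO 3 than in WT 3, as above. All 5 red blood cell genes above 7 on both arrays were higher in OC1-KO 3, by 0.32 to 1.03. So were all 3 pigment epithelium genes above 7, Pmel, Mitf and Dct, by 0.80 to 1.65. The red blood cell and pigment epithelium genes above 7 kept these directions after quantile normalization and after median centring. Of the genes below 7, Epb42 of the red blood cell list differed by -0.72. Of the 10 pigment epithelium genes measured, 8 were higher in OC1-KO 3 and 2 lower, Rpe65 by -1.89 and Gpr143 by -1.20. With the embryo number as a block the limma p, unadjusted, was 0.00258 for Pmel and 0.00972 for Mitf. Both were higher in OC1-KO at all 3 numbers. It was 0.0913 for Dct, the last of the 3 pigment epithelium genes kept. In this fit 4.37% of all probe sets kept had an unadjusted p under 0.05. Without the block the limma p was 0.0852 for Pmel and 0.136 for Mitf, and 0 probe sets had an adjusted p under 0.05 in either fit. Mesenchyme genes above 7 lay on both sides, from -0.99 to 0.20 over 4 genes, as did the 12 retinal genes, from -0.87 to 0.41 with a median of 0.10.

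**Figure D4:**
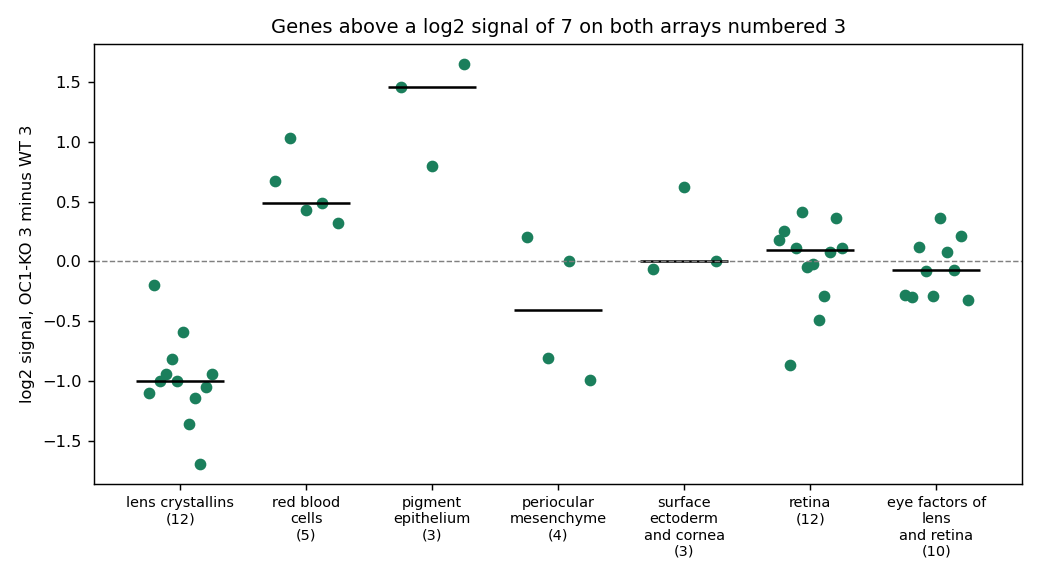
The log2 signal in OC1-KO 3 minus that in WT 3 (y axis) for the genes of each list above 7 on both arrays (x axis, number of genes in brackets), with 1 point per gene and a bar at the median. The 12 lens crystallins lie below 0 with a median of -1.0, and the 5 red blood cell genes and the 3 pigment epithelium genes lie above 0, with medians of 0.49 and 1.46.

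Other genes known from the lens, which the retina also uses, did not share the pattern of the crystallins. Of 12 further fibre genes listed, 10 were measured and 9 kept, and in 0 of the 10 did both embryos numbered 3 exceed the other 4. The cyclin-dependent kinase inhibitor Cdkn1c, which stops division in fibre cells and in retinal precursors, measured 12.55, 11.69 and 12.44 in OC1-KO embryos 1 to 3 and 11.87, 11.50 and 12.45 in WT. The homeobox factor Prox1, which elongating fibres and horizontal cells both need, measured 8.87, 7.99 and 8.49 in OC1-KO and 8.47, 8.94 and 8.65 in WT. Both genes were bright on all 6 arrays and overlapped between genotypes. In this list 5 genes were higher and 5 lower in OC1-KO. Of the 9 kept, 1, the actin cap gene Tmod1, had an unadjusted limma p under 0.05, against 1.01% of all probe sets kept.

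In 3 of the 10 eye factors shared by lens and retina, both embryos numbered 3 exceeded the other 4, as in 11.1% of all probe sets, but in 0 by over 1. The 3 are Six3, Sox2 and Lhx2, and Pax6 is not among them. The list mean was 11.62 to 11.73 in OC1-KO and 11.57 to 11.79 in WT. The genes that are crystallins in name and not proteins of lens refraction (Cryl1, Crym, Cryz, Cryzl1, Crybg1, Crybg2 and Crybg3) had 5 of 7 above 7 on every array and 0 with an excess over 1 in the embryos numbered 3. In the list of eye factors 6 of 10 were higher in OC1-KO, and among the genes named crystallin 2 of 7. In each of these lists 0 genes had an unadjusted limma p under 0.05 between genotypes.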

How the data were processed

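The values deposited by the authors are MAS5 intensity on a linear scale, made with the Affy package of Bioconductor from Affymetrix Mouse Genome arrays. The 2% trimmed mean is 500 on every array. The sources used here give no version of MAS5. Log2 was taken here. The arrays hold 45101 probe sets, of which 64 are controls and were not used, and 20888 with a mean log2 signal over 7 in OC1-KO or in WT were kept, as in the methods. Genes below this filter were fitted with all 45037 probe sets. Of these, 34945 map to 1 gene symbol in the platform annotation, 932 to several and 9160 to none.

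The genotypes were tested in limma 3.58.1 (R 4.3.3), with Benjamini-Hochberg adjustment over all probe sets tested, and the embryo number by the F-test of the same tool with genotype in the fit. Both fits were also run on simulated data with independent noise of one fixed spread and no pairing by number. The arrays here differ from that setting, so nothing is read from it. The methods' t-test assumes equal variances. Python 3.11.15, pandas 2.3.3, matplotlib 3.10.9 and Biopython 1.88 served the rest. The arrays pair by number: deviations from the genotype means correlate at 0.51 to 0.67 between arrays of one number and at -0.66 to -0.04 otherwise. Such deviations cancel out within a genotype, which itself pulls the correlations between different numbers to negative values, so nothing is read from their sign. The labels do not say what the number stands for. The samples numbered 3 carry record numbers apart from the consecutive ones of the other samples. Whether they were processed at another time is not stated, so the number and any such difference cannot be told apart. The precision is limited by 3 embryos per genotype, and signals below 7 are near background.

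The lens genes, the lists and the tests were chosen with earlier results of these data known. The lists cover other lens fibre genes, eye factors, other genes named crystallin, retina, red blood cells, pigment epithelium, periocular mesenchyme, endothelium, surface ectoderm and macrophages. All 30 genes are named, and those above 7 on any array are given for every array. The 12 bright crystallins, the other genes given for every array and the genes named from the lists were chosen after their values were seen.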

Additional observations from a re-analysis of the deposited data

How the results depend on the processing

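Between genotypes 0 probe sets had an adjusted p under 0.05 in any limma setting tried. With the embryo number as a replicate block limma had 913 probe sets at an unadjusted p under 0.05, against 210 without it. Of the 7 lens genes kept, 0 were under 0.05 in both, from which nothing is read, as above. On the brightest probe set of each lens gene the block changed no other call than that of Bfsp2. It gave an unadjusted p under 0.05 to the dimmer Gja3 probe set (0.00296) and to the one that names Cryga with another gene (0.0313), as to 4.32% of all probe sets. Without the filter on dim probe sets and without the block, 1 of the 26 lens genes had an unadjusted limma p under 0.05, against 2.9% of all probe sets. With embryos 1 and 2 alone, a setting chosen after seeing the data, 477 probe sets had an unadjusted p under 0.05, and the difference between OC1-KO and WT turned to 0.43 for Crygb, 0.00 for Crygf and 0.17 for Grifin; the causes were not tested.

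With 1 embryo left out the difference between OC1-KO and WT changed sign in 16 of the 26 lens genes. It ran over the 6 omissions from -1.86 to 3.36 for Cryaa, -1.81 to 2.04 for Cryab, -1.45 to 3.39 for Cryba1, -0.81 to 2.35 for Cryba2, -1.52 to 2.99 for Cryba4, -2.70 to 2.31 for Crybb1 and -1.45 to 2.40 for Crybb3. It ran from -1.19 to 4.73 for Cryga, -1.90 to 2.24 for Crygb, -1.27 to 4.02 for Crygd, -2.05 to 1.70 for Crygf, -1.36 to 2.90 for Crygn, -0.93 to 2.68 for Mip, -0.43 to 0.05 for Maf, -0.15 to 0.76 for Pitx3 and -0.91 to 0.79 for Dnase2b. The median over the 26 ran from -1.23 to 1.87.

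The embryo number was called for 1111 probe sets, and for 3850 with centred arrays, 4106 with an intensity trend in the prior variance, 2369 with no genotype term and 0 without the filter, where 0 lens genes were called. With 1 embryo left out the counts ran from 0 to 1544 probe sets and from 0 to 7 lens genes.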

Other observations

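Beside the lens genes, the 37 probe sets with an excess over 3 in both embryos numbered 3 included those of other genes, named here after their values were seen. Of the 37, 10 carried names of red blood cell genes, among them Slc4a1, the anion exchanger of the red cell membrane, at 3.82, 2.92 and 8.46 in OC1-KO embryos 1 to 3 and 4.53, 2.85 and 7.63 in WT embryos 1 to 3 (log2 signal). A further 12 mapped to other genes or to none. Among them a dimmer probe set of Col1a1, a fibrillar collagen, measured 1.36, 3.14 and 6.96 in OC1-KO and 0.83, 2.5 and 7.53 in WT. The brightest Col1a1 probe set measured 2.02, 5.79 and 6.90 in OC1-KO and 4.96, 1.46 and 6.98 in WT. Postn, the matrix protein periostin, measured 2.33, 2.76 and 7.0 in OC1-KO and 3.09, 3.29 and 7.91 in WT. Krt15, a keratin of basal epithelium, measured 2.31, 2.85 and 6.74 in OC1-KO and 2.17, 1.55 and 6.42 in WT. Myog, the skeletal muscle factor myogenin, measured 3.63, 3.13 and 6.69 in OC1-KO and 2.6, 3.25 and 6.75 in WT. Each of these was higher in the third embryo of both genotypes than in the other embryos. Col1a1 and Postn lay above 7 in WT 3 alone, and Krt15 and Myog on no array. Their part in the values of the lens genes was not tested.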
